A study of Homo sapiens with 4 samples.

Results

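To examine how inhibition of TGFβ signaling bears on the contacts between endothelial cells, the RNA levels of 10 endothelial junction genes were compared between H1-derived cells with and without SB431542. The 10 genes were PECAM1, CDH5, EMCN, CLDN5, ESAM, JAM2, JAM3, F11R, TJP1 and OCLN. They were taken by gene symbol from the 58365 rows of the FPKM table, and each symbol had 1 row. The rule named no difference between groups, and its choice of the row with the highest mean FPKM was not needed here. The list was, however, drawn up with earlier results of these data known. H1 is a human embryonic stem cell (hESC) line in long use. All 4 libraries came from H1 cells that received 40 ng/ml activinA and 50 ng/ml BMP4 for 2 days, then 40 ng/ml VEGF and 50 ng/ml bFGF for 3 days, and the same VEGF and bFGF for another 3 days. In the last 3 days the SB group (2 libraries, replicates 1 and 2) also received SB431542, an inhibitor of the kinase of TGFβ type I receptors, and the DMSO group (2 libraries, replicates 1 and 2) did not. Cells were collected at day 8. The study describes collecting CD31+ cells for RNA-seq, a step the labels do not mention. CD31 is the product of PECAM1, so the level of PECAM1 is a check of the cells and not a finding. The methods state in general that each analysis rested on independent experiments, in a number that is not the number of libraries here. Nothing ties the 2 libraries of a group to separate cultures, so p-values measure only the spread between these libraries, which may be technical. FPKM counts fragments per kilobase, relative to all mapped fragments of a library; it is scaled by length and allows levels of different genes to be set side by side.

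Endothelial cells line the vessels and hold together through adherens junctions and tight junctions at their borders. VE-cadherin (CDH5) forms the adherens junction and binds catenins inside the cell, claudin 5 (CLDN5) and occludin (OCLN) seal the tight junction, and ZO-1 (TJP1) links tight junction proteins to actin. The junctional adhesion molecules (JAM2, JAM3, F11R) and ESAM are immunoglobulin-type proteins of the tight junction region, PECAM1 joins neighbouring cells by binding itself, and endomucin (EMCN) is a sialomucin of the endothelial surface. When blood cells form from hemogenic endothelium, in the endothelial-to-hematopoietic transition (EHT), cells round up and leave the endothelial layer. PECAM1, ESAM, F11R and JAM3 are also known on platelets or their precursors, and F11R, TJP1 and OCLN are widely used in epithelia.

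The stretch before a RefSeq start of TJP1, a gene of epithelia and endothelium alike, is shown beside that of EMCN, a gene largely of endothelium. The 2 differ in their content of CG. Promoter windows from RefSeq (GRCh38.p14) covered the 250 bases before a start and were matched by symbol for 3 of the 10 genes, TJP1, OCLN and EMCN. Of their listed starts (4 for TJP1, 2 for OCLN, 1 for EMCN) the first was used, so what follows describes that window alone. CG is in capitals. The TJP1 stretch is chr15:29969050-29969299, minus strand, 184 bases beyond the gene end that GENCODE gives. The EMCN stretch is chr4:100518094-100518272, minus strand, and leaves out the 71 bases of its window that GENCODE places in an exon. It lies inside the EMCN gene as GENCODE draws it, since the RefSeq start is 362104 bases downstream of the GENCODE gene end on that side. The OCLN window lies wholly in the first exon of GENCODE and is not shown.
TJP1: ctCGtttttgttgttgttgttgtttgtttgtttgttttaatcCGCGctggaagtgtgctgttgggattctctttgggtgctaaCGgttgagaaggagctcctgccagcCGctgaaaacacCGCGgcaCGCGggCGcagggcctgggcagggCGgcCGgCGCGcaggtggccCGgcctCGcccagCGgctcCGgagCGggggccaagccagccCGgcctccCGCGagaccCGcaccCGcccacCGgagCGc
EMCN: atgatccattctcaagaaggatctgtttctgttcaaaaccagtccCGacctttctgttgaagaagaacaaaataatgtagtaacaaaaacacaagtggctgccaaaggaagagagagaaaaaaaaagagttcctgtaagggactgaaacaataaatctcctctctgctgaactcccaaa

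The window of TJP1 held 26 CG and that of OCLN 24, more than 80.4% and 76.3% of the 35116 promoter windows of the same length, whose median was 11. The window of EMCN held 2, more than only 14.7% of windows. A CG was present in 93.9% of all windows. Both strands were also searched for GGAA, the core of sites of the ETS factors used in endothelium, and for CAGAC, a SMAD box. Neither contains CG, though a match can share a letter with a neighbouring CG. GGAA was found 4 times in the EMCN window, 3 times in that of OCLN and 1 time in that of TJP1, and at least 1 match was present in 92.7% of all windows, at least 3 in 55.1% and at least 4 in 34.3%. CAGAC was found 1 time in the OCLN window and in 38.0% of all windows. These are counts of letters, and the libraries hold no measure of binding.

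The libraries had FPKM sums between 570844 and 612614, and between 14183 and 14372 genes reached 1 FPKM. Their absolute depth is unknown, and a rough estimate from the smallest steps of low values put SB replicate 1 at 75.5% of the deepest library (SB replicate 2). Of 10 endothelial markers (KDR, FLT1, TEK, TIE1, VWF, EGFL7, ROBO4, ERG, SOX17, ENG) all 10 reached 1 FPKM in every library, with sums between 1739 and 2041 FPKM with DMSO and between 1559 and 1833 FPKM with SB. Endothelial RNA was thus present in each library, in cells the labels call only H1 samples of day 8. Libraries also differed by replicate number, with 5.88% and 6.64% of all FPKM in mitochondrial genes in replicate 1 (DMSO and SB) and 9.92% and 10.2% in replicate 2.

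With SB, CLDN5 was 2.04-fold higher in mean FPKM, whereas the other 8 tested junction genes differed by at most 0.28 on the log2(FPKM + 1) scale, and none of these differences passed the adjustment for multiple testing. A gene was tested when its mean reached 1 FPKM in at least 1 group, which 9 of the 10 genes did; JAM2 did not. By limma (two-sided, Benjamini-Hochberg over 14909 genes, threshold 0.05), 0 of the 9 were called, beside 0.134% of all tested genes (20 genes). At an unadjusted p under 0.05, 1 of the 9 was found (CLDN5), beside 9.96% of all tested genes (1485 genes). The SB libraries lay wholly above the DMSO libraries for 2 of the 9 (CLDN5 and EMCN), beside 21.5% of all tested genes, and wholly below for 1 of the 9 (CDH5), beside 16.0%. With 9 genes, counts of 0, 1 and 2 do not set the group apart from these shares. The median log2 fold change of the 9 genes was -0.09, and that of all tested genes was 0.04. The median size without sign was 0.11, against 0.19 over all tested genes. In bulk RNA, fewer cells of a type and less RNA per cell cannot be told apart.

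**Figure D1:**
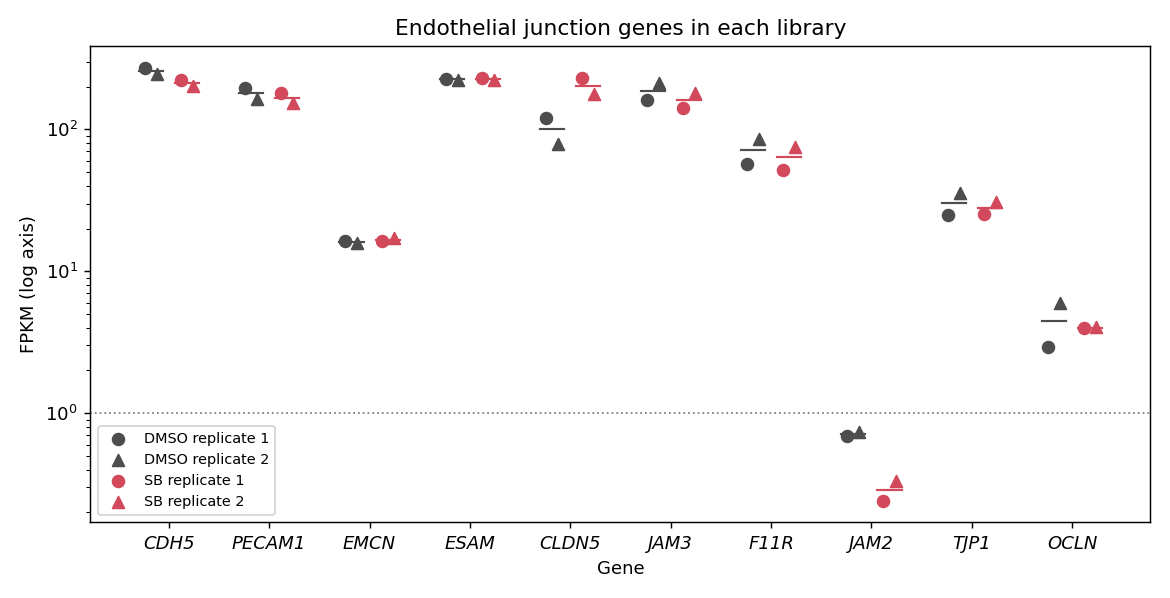
FPKM (log axis) of the 10 endothelial junction genes in each library, with circles for replicate 1, triangles for replicate 2, grey for DMSO, red for SB and a short line at each group mean; the dotted line marks 1 FPKM. CLDN5 stands at 121 and 79.4 FPKM with DMSO and at 231 and 177 FPKM with SB, while ESAM stays between 222 and 229 FPKM and JAM2 lies under 1 FPKM in every library.

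The adhesion molecules of the endothelial border were abundant. CDH5 (ENSG00000179776.17, chr16:66366622-66404786, plus strand), which encodes VE-cadherin, had 273 and 246 FPKM with DMSO and 224 and 202 FPKM with SB. Both SB values lay below both DMSO values. The means were 259 ± 19.1 and 213 ± 15.2 FPKM (SD, n = 2 each), and the log2 fold change was -0.28 (SE 0.16, 95% interval -0.70 to 0.14, limma adjusted p 0.710). The difference was the same within both replicate numbers, -0.29 in replicate 1 and -0.28 in replicate 2.

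PECAM1 (ENSG00000261371.5, chr17:64319415-64413776, minus strand), the gene of the surface protein by which the cells were collected, stood at 197 and 163 FPKM with DMSO and at 182 and 153 FPKM with SB. The groups overlapped. Its log2 fold change was -0.11 (95% interval -0.60 to 0.39, limma adjusted p 0.943), and leaving out DMSO replicate 1 gave 0.03, leaving out SB replicate 2 gave 0.02. EMCN (ENSG00000164035.9, chr4:100395341-100880126, minus strand) was lower than both by an order of magnitude, at 16.2 and 15.9 FPKM with DMSO and at 16.4 and 17.0 FPKM with SB. The SB values were higher by 1.04-fold on average, and the groups did not overlap, though they did when libraries were scaled by their upper quartile. The log2 fold change was 0.06 (SE 0.16, 95% interval -0.35 to 0.46, limma adjusted p 0.967). The level of EMCN against other genes is uncertain, since GENCODE extends the gene far beyond its RefSeq start and the transcript length behind its FPKM is not given in the sources used here.

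The tight junction genes typical of endothelium were CLDN5 and ESAM. CLDN5 (ENSG00000184113.9, chr22:19523024-19527545, minus strand), the main claudin of endothelium, had 121 and 79.4 FPKM with DMSO and 231 and 177 FPKM with SB. The lower SB value was above the higher DMSO value. The means were 99.99 ± 29.1 and 204 ± 38.5 FPKM (SD, n = 2 each). The log2 fold change was 1.04 (SE 0.27, 95% interval 0.33 to 1.75, limma unadjusted p 0.0134, adjusted p 0.318), which is between 1.26-fold and 3.36-fold. Within replicate numbers the difference was 0.93 in replicate 1 and 1.14 in replicate 2. Of all 14909 tested genes, 208 (1.40%) had a larger log2 fold change and 624 had a smaller unadjusted p. The value ran from 0.74 without DMSO replicate 2 to 1.34 without DMSO replicate 1.

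ESAM (ENSG00000149564.11, chr11:124752583-124762290, minus strand), which encodes an adhesion molecule of endothelial tight junctions and platelets, stood at 227 and 223 FPKM with DMSO and at 229 and 222 FPKM with SB. The groups overlapped within this narrow range. Its log2 fold change was 0.0038 (95% interval -0.38 to 0.39, limma adjusted p 0.998), an interval that leaves room for 0.768-fold to 1.31-fold. Under other scalings of the libraries its sign changed, to between -0.051 and -0.040.

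**Figure D2:**
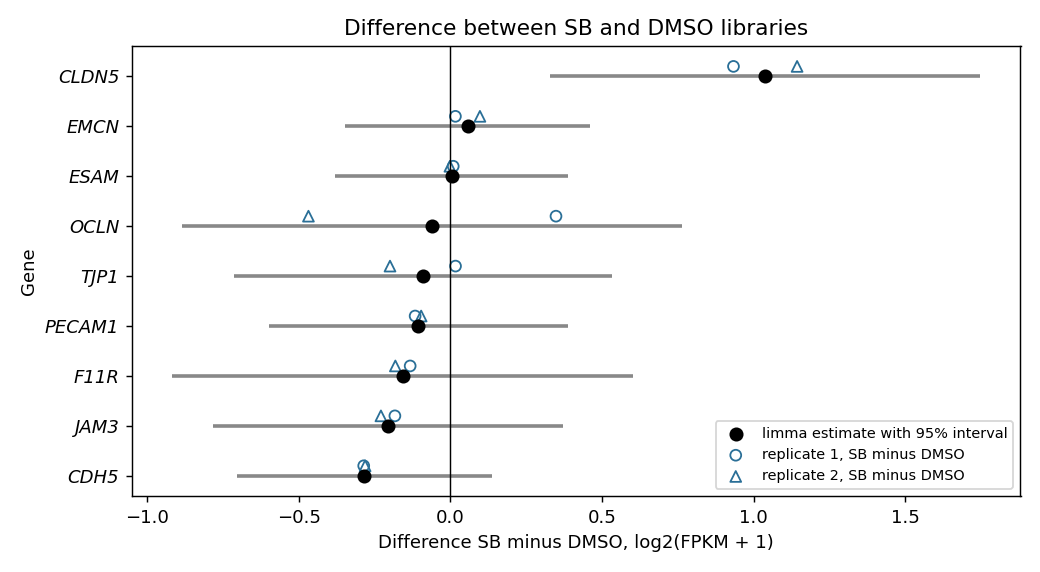
Log2 fold change of SB against DMSO (log2(FPKM + 1) scale) of the 9 tested junction genes, with the limma estimate as a filled circle, its 95% interval as a bar, and the differences within replicate 1 and within replicate 2 as open symbols. The interval of CLDN5 lies above 0 (0.33 to 1.75) and those of the other 8 genes include 0; the signs of PECAM1, ESAM, F11R, TJP1 and OCLN changed when single libraries were left out, that of ESAM also under other scalings, and those of TJP1 and OCLN also relative to PECAM1.

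Of the 3 JAM genes, JAM3 and F11R carried nearly all of the RNA. JAM3 (ENSG00000166086.12, chr11:134068925-134152001, plus strand) encodes JAM-C, a partner of the leukocyte integrin Mac-1 that is also found on platelets. It stood at 161 and 211 FPKM with DMSO and at 142 and 180 FPKM with SB. Each SB value was below the DMSO value of the same number, by 0.18 and by 0.23 on the log2 scale, but the groups overlapped. The difference was -0.21 on the log2 scale (SE 0.22, 95% interval -0.78 to 0.37, limma adjusted p 0.873). JAM3 shares 465 bases of exon with NCAPD3 on the other strand, which stood between 10.3 and 11.6 FPKM.

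F11R (ENSG00000158769.17, chr1:160995211-161021348, minus strand) encodes JAM-A, found on epithelium, endothelium and platelets. It stood at 57.1 and 85.5 FPKM with DMSO and at 52.0 and 75.3 FPKM with SB, so that the libraries of replicate 2 were higher than those of replicate 1 in both groups. The log2 fold change was -0.16 (SE 0.29, 95% interval -0.92 to 0.60, limma adjusted p 0.951), and 0.13 without DMSO replicate 2. F11R is uncertain as a level, since 1853 bases of its exons also belong to AL591806.3 on the same strand. That row stood at 76.1 and 40.6 FPKM with DMSO and at 66.2 and 39.1 FPKM with SB, and was thus lower in replicate 2, where F11R was higher. How the authors' counting divided reads between the overlapping rows was not tested.

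JAM2 (ENSG00000154721.14, chr21:25639272-25717562, plus strand), which encodes JAM-B, the partner of JAM-C in the endothelium of lymphoid organs, was near absent. It stood at 0.689 and 0.731 FPKM with DMSO and at 0.242 and 0.332 FPKM with SB. Both SB values were below both DMSO values, with a ratio of means of 0.404, but the gene did not reach the filter and was not tested. Its 58 bases of exon shared with ATP5J, which stood between 122 and 151 FPKM, leave these low values uncertain. As shares of the summed FPKM of the 3 JAM genes, JAM3 took 73.6% and 71.0% with DMSO and 73.1% and 70.4% with SB. F11R took 26.1% and 28.8% with DMSO and 26.8% and 29.5% with SB. The shares of JAM3 and F11R differed more by replicate number than by group, and they rest on the level of F11R, which is uncertain as described above. JAM2 took 0.314% and 0.246% with DMSO and 0.124% and 0.130% with SB, and its share was lower in both SB libraries.

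The tight junction genes shared with epithelia were lower in level. TJP1 (ENSG00000104067.16, chr15:29699367-29968865, minus strand), which encodes ZO-1, stood at 24.9 and 35.6 FPKM with DMSO and at 25.2 and 30.9 FPKM with SB. The SB values lay within the range of the DMSO values, with a log2 fold change of -0.09 (SE 0.24, 95% interval -0.71 to 0.53, limma adjusted p 0.966), and the differences within numbers had opposite signs, 0.02 and -0.20. OCLN (ENSG00000197822.10, chr5:69492292-69558104, plus strand), which encodes occludin, stood at 2.91 and 5.97 FPKM with DMSO and at 3.97 and 4.04 FPKM with SB. The DMSO libraries were far apart and enclosed the SB libraries, with a log2 fold change of -0.06 (SE 0.32, 95% interval -0.88 to 0.76, limma adjusted p 0.986), with 0.35 and -0.47 within numbers. Relative to PECAM1 in the same library, the differences of TJP1 and OCLN were 0.015 and 0.046. A partial copy of OCLN, the row AC044797.1, stood at no more than 0.435 FPKM in any library.

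The order of the levels was next compared within each group. With DMSO, CDH5 was highest, followed by ESAM, then JAM3 and PECAM1, whose ranges overlapped, then CLDN5 and F11R, whose ranges overlapped, then TJP1, EMCN, OCLN and JAM2. With SB, the ranges of each neighbour among ESAM, CDH5, CLDN5, PECAM1 and JAM3 overlapped, and F11R, TJP1, EMCN, OCLN and JAM2 followed in that order without overlap. CLDN5 was 5th with DMSO and 3rd with SB. Among all tested genes, CDH5 was higher in mean level than 98.0%, ESAM than 97.9%, PECAM1 and JAM3 each than 97.2%, CLDN5 than 96.7%, F11R than 90.9%, TJP1 than 77.0%, EMCN than 63.3% and OCLN than 29.5%. The summed FPKM of the 10 genes was nearly level across libraries, at 1081 and 1066 with DMSO and at 1105 and 1061 with SB.

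Ratios between genes within a library do not depend on the scaling of that library. The ratio of CLDN5 to CDH5 was 0.442 and 0.323 in the DMSO libraries and 1.03 and 0.874 in the SB libraries. CLDN5 thus went from under CDH5 to about its level. The ratio of CLDN5 to ESAM was 0.530 and 0.357 with DMSO and 1.01 and 0.794 with SB, and that of CLDN5 to PECAM1 was 0.612 and 0.487 with DMSO and 1.27 and 1.16 with SB. In each of these 3 ratios both SB libraries lay above both DMSO libraries. All 3 have CLDN5 as numerator, which itself lay wholly above with SB, so they are not 3 separate results. The ratio of CDH5 to PECAM1 was 1.38 and 1.51 with DMSO and 1.23 and 1.32 with SB, so that the SB values were lower. The ratio of ESAM to CDH5 was 0.834 and 0.906 with DMSO and 1.02 and 1.10 with SB. The smallest two-sided p of an exact permutation test of 2 libraries against 2 is 0.333, and the ratios were not tested.

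**Figure D3:**
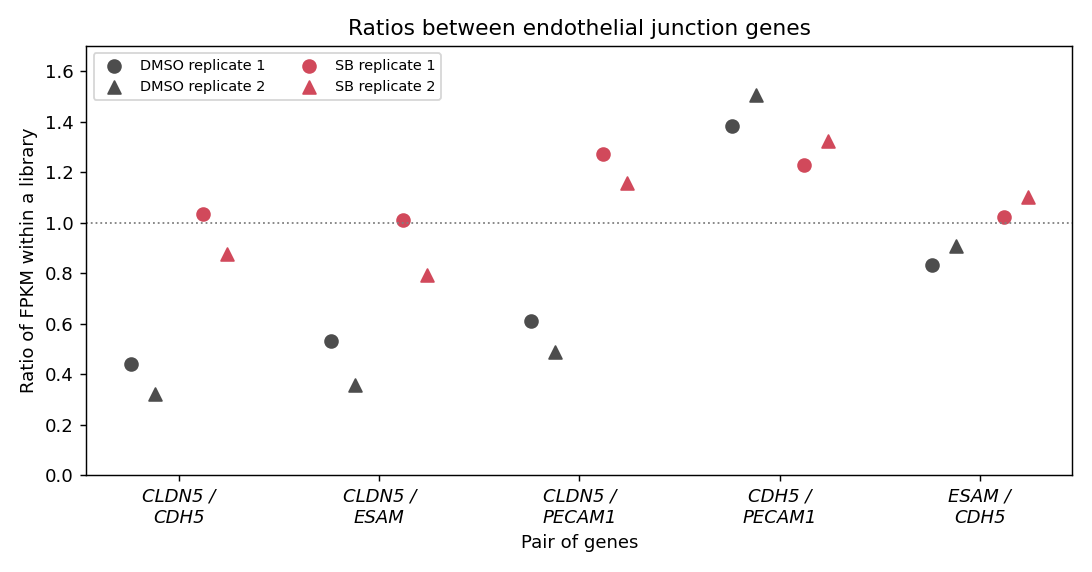
Ratio of FPKM between pairs of junction genes within each library, with circles for replicate 1, triangles for replicate 2, grey for DMSO and red for SB; the dotted line marks equal levels. The ratio of CLDN5 to CDH5 is 0.323 to 0.442 with DMSO and 0.874 to 1.03 with SB. In the first 3 pairs, which all have CLDN5 as numerator, the SB libraries lie above the DMSO libraries.

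The libraries of the same group were also compared by replicate number, with no test. Between replicate 2 and replicate 1, averaged over the groups, the log2 difference was 0.55 for F11R, 0.43 for OCLN, 0.39 for TJP1 and 0.36 for JAM3. It was -0.49 for CLDN5, -0.26 for PECAM1 and -0.15 for CDH5, and it was -0.036 for ESAM and 0.0092 for EMCN. The genes shared with epithelia and JAM3 were thus higher in replicate 2, and CLDN5, PECAM1 and CDH5 were lower. For OCLN the difference was 0.83 with DMSO but only 0.019 with SB. That of F11R is uncertain, since AL591806.3, which shares exon bases with it on the same strand, was lower in replicate 2. The sign of the difference between replicate numbers was the same in both groups for 9 of the 10 genes, with EMCN the exception. For 6 of the 9 tested genes this difference was larger in size than the difference between the groups, as it was for 57.3% of all tested genes. For CLDN5, CDH5 and EMCN the difference between the groups was the larger. What the replicate numbers stand for is not given in the sources used here.

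Of the wider set of junction genes, 74 genes in 5 lists, 55 were tested and 0 were called by limma after adjustment. At an unadjusted p under 0.05 there were 14 (25.5%, 4 higher and 10 lower with SB), beside the 9.96% of the whole table. Both SB values were below both DMSO values for 32.7% of the 55, beside 16.0% of all tested genes, and above them for 18.2%, beside 21.5%. The median log2 fold change was -0.12. These lists were drawn up with earlier results known, so the shares are a description.

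Catenins and regulators of VE-cadherin showed both directions. All 16 were tested, with a median of -0.09, and 2 were higher and 2 lower at an unadjusted p under 0.05. RAP1B, a small GTPase that strengthens cadherin adhesion, stood at 192 and 228 FPKM with DMSO and at 293 and 331 FPKM with SB (log2 fold change 0.57, limma adjusted p 0.394). VCL (vinculin) had a log2 fold change of 0.45 (limma adjusted p 0.476). CDH2, the N-cadherin that endothelial cells use toward mural cells, stood at 15.0 and 18.5 FPKM with DMSO and at 9.57 and 11.3 FPKM with SB (log2 fold change -0.63, limma adjusted p 0.390). In RAP1B, VCL and CDH2 the groups did not overlap.

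Of 20 other claudins, 8 were tested, with a median of -0.30, and 3 were lower and 0 higher at an unadjusted p under 0.05. CLDN6, a claudin of embryonic epithelia and pluripotent cells, stood at 15.5 and 15.8 FPKM with DMSO and at 5.66 and 6.81 FPKM with SB. The groups were far apart, with a log2 fold change of -1.21 (limma unadjusted p 0.00107, adjusted p 0.125), in the opposite direction to CLDN5. CLDN7, a claudin of epithelia, had a log2 fold change of -0.27 (limma adjusted p 0.718) and CLDN10 one of 0.25 (limma adjusted p 0.760). CLDN8 and CLDN17 were listed at 0 in every library.

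Of 21 plaque and polarity genes of the tight junction, 18 were tested, with a median of -0.22, and 4 were lower and 0 higher at an unadjusted p under 0.05. PRKCZ, an atypical protein kinase C of the polarity complex, stood at 6.67 and 5.07 FPKM with DMSO and at 2.70 and 2.19 FPKM with SB (log2 fold change -0.99, limma adjusted p 0.245). AMOTL2, an angiomotin relative that binds VE-cadherin and actin, stood at 14.0 and 12.9 FPKM with DMSO and at 5.61 and 7.42 FPKM with SB (log2 fold change -0.96, limma adjusted p 0.223). CGNL1, the paracingulin of the junction plaque, had a log2 fold change of -0.51 (limma adjusted p 0.404).

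Of 8 nectins and relatives of the JAM family, 5 were tested, with a median of -0.05, and 0 had an unadjusted p under 0.05. NECTIN2 was the most abundant of the named genes, between 145 and 209 FPKM (log2 fold change -0.05, limma adjusted p 0.987), PVR had -0.25 (limma adjusted p 0.754) and NECTIN1 had 0.02 (limma adjusted p 0.992).

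Among 9 border adhesion molecules and sialomucins, 8 were tested, with a median of -0.04, and 2 were higher and 1 lower at an unadjusted p under 0.05. CD99 was listed at 0 in every library, which can be a failed estimate. ICAM2, a ligand of leukocyte integrins on endothelium and platelets, stood at 58.0 and 70.1 FPKM with DMSO and at 126 and 144 FPKM with SB. Its groups did not overlap, and its log2 fold change of 1.07 (limma unadjusted p 0.00243, adjusted p 0.170) was about that of CLDN5. ICAM1 had a log2 fold change of 0.56 (limma adjusted p 0.386). PODXL, a sialomucin related to CD34, had -0.42 (limma adjusted p 0.493).

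**Figure D4:**
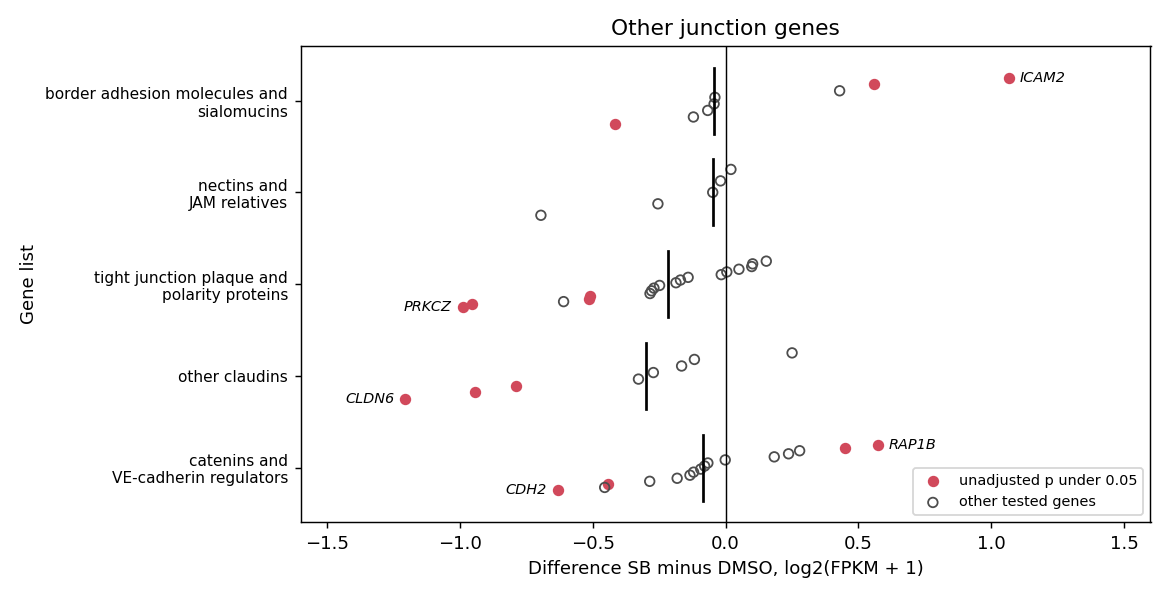
Log2 fold change of SB against DMSO (log2(FPKM + 1) scale) of the 55 tested genes of 5 further junction lists, each point 1 gene, filled red where the unadjusted limma p is under 0.05, with a vertical bar at the median of each list. The medians lie below 0 (-0.30 for the other claudins, -0.22 for plaque and polarity genes), and 4 filled points lie above 0 and 10 below; 0 genes pass the adjustment.

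Markers of other cells moved with the groups, and their part in the values above was not tested. The 8 megakaryocyte and platelet markers summed to 208 to 219 FPKM with DMSO and to 548 to 628 FPKM with SB, in the same direction as CLDN5 and ICAM2; 6 of 8 reached 1 FPKM in every library, and of 7 tested 7 were higher at an unadjusted p under 0.05 and 0 were called. ESAM, PECAM1, JAM3 and F11R, also known on platelets, had log2 fold changes of 0.0038, -0.11, -0.21 and -0.16. The 9 epithelial and endoderm markers summed to 395 to 406 FPKM with DMSO and to 123 to 129 FPKM with SB, in the direction of CLDN6 and of the plaque genes; 7 of 9 reached 1 FPKM in every library, all 9 were lower at an unadjusted p under 0.05, and 3 (AFP, TTR and APOA1) were called. TJP1 and OCLN, also used in epithelia, had log2 fold changes of -0.09 and -0.06. The 10 mesenchymal markers summed to 390 to 432 FPKM with DMSO and to 215 to 216 FPKM with SB, with 9 of 10 at 1 FPKM in every library and 6 lower at an unadjusted p under 0.05.

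The 10 endothelial markers had a median log2 fold change of -0.20, with 3 lower (FLT1, ROBO4 and ENG) and 0 higher at an unadjusted p under 0.05. The 10 hematopoietic markers summed to 836 to 885 FPKM with DMSO and to 794 to 846 FPKM with SB. This sum was held mostly by the globin HBE1, at 614 and 676 FPKM with DMSO and at 460 and 524 FPKM with SB. The median log2 fold change of the 9 tested was nevertheless 0.58, with 5 higher and 0 lower at an unadjusted p under 0.05. PTPRC, the gene of CD45, was at most 0.202 FPKM. The 6 pluripotency markers summed to 69.8 to 89.3 FPKM with DMSO and to 93.6 to 114 FPKM with SB, with 2 of 6 at 1 FPKM in every library and NANOG at most 0.0261 FPKM. No marker of the 6 lists was at 0 in all libraries.

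Finally, genes with profiles most like those of CDH5 and CLDN5 were sought among 9006 tested genes with at least 5 FPKM in each library, by the distance between centred log2(FPKM + 1) profiles over the 4 libraries. Nearest to CDH5 were CRTAP (distance 0.0221), CALCOCO1, PHLDB1, PCDH10 and QSOX2 (0.0347). CRTAP stood at 151 and 136 FPKM with DMSO and at 122 and 111 FPKM with SB. Nearest to CLDN5 were UNC13D (distance 0.0927), TMEM173, TNNT1, DMTN and ADRA2A (0.179). These were farther than the neighbours of CDH5, but the distance is not scaled for the size of a difference, which was larger for CLDN5. UNC13D stood at 16.6 and 10.5 FPKM with DMSO and at 31.1 and 22.7 FPKM with SB, higher with SB and lower in replicate 2 as CLDN5 was. A shared direction follows from how these genes were sought, and with 4 libraries such likeness is a description of these profiles.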

How the data were processed

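RNA-seq of 4 libraries (2 DMSO, 2 SB) was analysed from 1 table. The authors deposited FPKM values, with sequencing and primary processing done by a service company. The submitters' processing notes name BWA, Bowtie, RSEM and build hg19, without roles. GENCODE release 29 holds 95.5% of the identifiers, 99.8% of them at the position the table gives, so positions are on GRCh38 (1-based). Whether counting used strand is not given in the sources used here. The number of fragments per library is unknown, so no counting interval is given.

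Values were transformed to log2(FPKM + 1), which understates the change of low genes. Genes with a mean of at least 1 FPKM in at least 1 group were tested with limma 3.58.1 in R 4.3.3 (empirical Bayes with a trend, group as the only term, two-sided, Benjamini-Hochberg, threshold 0.05). Of 4 libraries, 2 stand in each group. The members and lists were chosen with earlier results of these data known, and the CG counts were added after the data were seen. All 10 members are named, and from each further list at most 3 genes, those of smallest unadjusted p whose mean was 5 FPKM or more in the higher group; the 5 genes most like CDH5 and CLDN5 are also named. CLDN8, CLDN17, CD99, AFP and other genes outside this rule are named to account for counts. The alternatives tried were a block for the replicate number, the fit without a filter, a minimum of 5 FPKM in 2 libraries, a pseudocount of 0.1, 3 other scalings, differences relative to PECAM1 and leaving out each library. Proteins were not analysed here.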

Additional observations from a re-analysis of the deposited data

How the results depend on the processing

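Over 12 alternatives, 90 of 106 values of single junction genes kept their direction and their side of the threshold. Another 14 changed sign (9 of them on leaving out 1 library), and 2 passed the threshold only in an alternative. With 0 of the 9 genes called in the fit without the block, no gene could lose the threshold. Keeping the side of the threshold is therefore no measure of robustness here. Samples share only a number. With the replicate number as a block, 2 junction genes were called (CLDN5, adjusted p 0.00695, and CDH5, adjusted p 0.0398), with 1564 genes called in all and 12 of the wider junction genes. Deviations from the group means had a correlation of 0.53 over the tested genes between the DMSO and SB libraries of replicate 1. Replicate 2 must give the same value, since its deviations are the negatives of those of replicate 1. The labels do not say what the number marks. All genes called were 20 in the fit without the block, 31 after quantile normalization, 0 with no filter (2739 at an unadjusted p under 0.05 by limma) and 0 to 14 on leaving out 1 library.

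ESAM had -0.051 after quantile normalization, -0.0398 under upper-quartile scaling and -0.0395 with the sum taken without mitochondrial and signal recognition particle RNA. Relative to PECAM1, which adds 0.11 to each difference, TJP1 had 0.015 and OCLN 0.046, and the median of the junction genes was 0.031. On leaving out 1 library, values ran from -0.24 to 0.029 for PECAM1, -0.34 to 0.16 for TJP1 and -0.017 to 0.024 for ESAM. They ran from -0.44 to 0.13 for F11R and -0.48 to 0.36 for OCLN. The count of junction genes whose groups did not overlap was 3 in the fit without the block and 4 with no filter. It was 2 under upper-quartile scaling, where the groups of EMCN overlapped, and 2 relative to PECAM1. With 1 library left out it was 5 to 7. With 1 left out, a single library is compared with 2, and such groups separate more easily than 2 against 2. The share of all tested genes is not given for these fits, so the higher counts are not read as a change in the junction genes. The lone sample is assumed there to vary like the other group. The median of the junction genes was -0.21 to 0.041, its sign changing without DMSO replicate 2. The stricter filter left out OCLN, and JAM2 entered only with no filter. The cause of these changes was not tested. With 2 libraries a group and unknown depth, the intervals of 8 of the 9 tested genes include 0.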
